A study of Mus musculus with 6 samples.

Results

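Interleukin 17B is a secreted cytokine of the IL-17 family. Its gene and those of its relatives are described here in 6 RNA-seq libraries of mouse spheno-occipital synchondrosis, a growth cartilage that joins bones of the cranial base. The 7 genes are 2 ligands, Il17b and Il17d, and 5 receptor subunits, Il17ra, Il17rb, Il17rc, Il17rd and Il17re. They were picked by symbol from the 24346 symbols of the deposited files, and all 7 were listed there. The choice started from Il17b, whose level in FP libraries against RR libraries was already known to differ. The FP against RR values of the 7 genes are therefore a description and carry no test.

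Chondrocyte layers were cut from frozen sections with a laser microdissector, and the study compares flat with round chondrocytes. Libraries fall into 2 groups by the codes FP and RR in their titles, with 3 libraries each, numbered 11, 14 and 16 in both. The labels leave both codes unexplained. All 6 libraries share genotype and treatment: Gli1CreERT2, a Cre recombinase driven by the hedgehog-responsive gene Gli1 and switched on by tamoxifen, together with a Tomato flox reporter, and Tamoxifen injection at P3. Cutting took whole layers, and the labels name no sorting of reporter cells. The sources used here do not state how old the mice were when sampled. They also do not tie libraries to animals, so a p-value reflects only how far these samples spread, which may be technical.

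IL-17 cytokines are dimers that act through pairs of receptor subunits. IL-17RA is the subunit shared by most pairs. IL-17RB binds IL-17B and also IL-25, IL-17RC pairs with IL-17RA for IL-17A and IL-17F, and IL-17RE does so for IL-17C. IL-17RD, also called Sef, is known mainly as an inhibitor of FGF receptor and ERK signalling. The paired receptors recruit the adaptor Act1 and TRAF6, which lead to NF-kappaB and MAP kinases and to chemokine and neutrophil-attracting target genes. IL-17B itself has been described in cartilage and in neurons more than in immune cells.

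Cartilage identity and layer were checked on markers. Of 10 cartilage markers, 8 were listed, and their summed level was 42770 to 88380 FPKM in all 6 libraries (FPKM scales fragments by transcript length and by library depth). Among 10 hypertrophic markers 7 passed as higher in FP and 0 as lower, while among 9 resting zone markers 6 passed as lower and 1 as higher. The test was limma on log2(FPKM + 1) over 14789 genes whose mean reached 1 FPKM, with Benjamini-Hochberg adjusted p under 0.05 as the threshold. Over all of them 143 genes passed (0.967%), 82 higher in FP (0.554%) and 61 lower (0.412%). Of the 8 cartilage markers 1 passed as higher in FP, Comp, and 0 as lower, while all 8 had a higher estimate. Their median log2 difference was 0.91, beside 0.02 over all genes tested, and groups did not overlap for 4, beside 16% of all genes. Most of their sum is Col2a1, whose groups overlapped. From the step size of low values, a single fragment of a 2000 bp transcript equalled 0.128 to 0.296 FPKM, a 2.32-fold range in depth, with FP 14 and RR 14 the shallowest library of their groups.

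On mm10, with GENCODE M21 gene models, Il17d is on chromosome 14 (57524777 to 57543166, plus strand). Il17rb is on the same chromosome (29996135 to 30008896, minus strand), as is Il17rd (27038941 to 27107286, plus strand). The other 3 receptor genes are on the plus strand of chromosome 6, Il17re at 113458484 to 113470758, Il17rc at 113471427 to 113483140 and Il17ra at 120463247 to 120487559. Il17re and Il17rc thus follow each other with 668 bp between them.

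RefSeq promoter windows (GRCm38.p6, the mm10 assembly) were found for 5 of the 7 genes, all but Il17b and Il17ra, whose promoters were therefore not searched. Stretches of 3 are shown, because they belong to the receptor of IL-17B, whose FP values lay below its RR values, and to 2 genes whose FP and RR values overlapped. Each is written 5′ to 3′ on the gene's strand, with matches to the searched motifs in capitals. The Il17rb stretch holds 30 bases around the AP-1 match, and the others run up to the first annotated exon.
Il17rb, chr14:30008982-30009011, minus strand: cctcccgggccTGAGTCAttcgcaccccgc
Il17rc, chr6:113471205-113471426, plus strand: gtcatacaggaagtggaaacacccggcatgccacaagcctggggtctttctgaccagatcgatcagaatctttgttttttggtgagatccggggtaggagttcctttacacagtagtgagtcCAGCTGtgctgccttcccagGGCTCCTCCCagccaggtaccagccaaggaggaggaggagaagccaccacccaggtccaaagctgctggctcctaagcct
Il17d, chr14:57524579-57524776, plus strand: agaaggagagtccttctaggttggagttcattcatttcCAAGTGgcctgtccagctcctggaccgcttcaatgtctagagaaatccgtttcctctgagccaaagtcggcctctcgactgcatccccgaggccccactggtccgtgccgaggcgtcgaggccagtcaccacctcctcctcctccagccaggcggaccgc

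The 250 bases before the RefSeq start were searched on both strands for 7 motifs, each given by its letters beside its result. No motif was required to be free of overlap with another. Il17rb alone of the 5 held an AP-1 match (TGANTCA), which begins 104 bases before the start and is the capital stretch above. AP-1 letters occur in 6.87% of the 27025 windows of this length. Il17rc alone held a kappaB match (GGGA and CC with any 4 bases between), read on the opposite strand and beginning 108 bases before the start, against 17.3% of windows. A GC box, GGGCGG, was found in Il17rb and Il17rd and in 32.9% of all windows. The E-box letters CANNTG were in all 5 and in 66.0% of windows. The RUNX letters TGTGGT were in 0 of the 5 and in 14.2% of windows. The GLI letters TGGGTGGTC were in 0 of the 5 and in 0.211% of windows. The TATA letters TATAAA were in 0 of the 5 and in 13.0% of windows. The Il17rb window was 72.0% G or C, above the upper quartile of 60.8% over all windows. A match is a description of letters and says nothing about binding.

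Il17b reached 170, 142 and 242 FPKM in FP 11, FP 14 and FP 16. RR 11, RR 14 and RR 16 held 13.6, 6.53 and 19.3 FPKM. The groups were far apart, the lowest FP library being 7.37 times the highest RR library. Group means were 184 ± 51.6 FPKM for FP and 13.1 ± 6.38 for RR (SD, n = 3), a ratio of 14.1. On the log2(FPKM + 1) scale, where changes of low genes come out too small, the difference was 3.79, and within numbers 11, 14 and 16 it was 3.55, 4.25 and 3.58. It ranked 24 from the top among the 14789 genes tested. In bulk layers, fewer cells of a type and less RNA per cell cannot be told apart.

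Il17b (ENSMUSG00000024578) lies on mm10 chromosome 18 (61684887 to 61692538, plus strand) and has 3 exons in a single 693 bp basic transcript. Read as fragments on the 693 bp transcript, Il17b had about 195 to 460 fragments in FP libraries and 7.6 to 38.3 in RR libraries. FPKM of such a short transcript is also sensitive to the length correction, which is the same for both groups and so bears on levels between genes more than on the FP to RR ratio. Among all listed symbols Il17b stood between percentiles 98.9 and 99.2 in FP libraries and between 78.5 and 91.6 in RR libraries. It was thus among the top 2 in 100 symbols in each FP library and detected in each RR library. Within both groups the library numbered 14 was lowest and that numbered 16 highest. Those numbered 14 are also the shallowest of their groups, and the part of depth in this order was not tested.

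Il17d, the other ligand with a clear level, showed 32.5, 32.3 and 41.1 FPKM in FP 11, FP 14 and FP 16. Its RR values, in the same order of numbers, were 21.7, 32.4 and 53.4 FPKM. The RR values enclosed the FP values, with means of 35.3 ± 4.98 for FP and 35.8 ± 16.1 FPKM for RR (SD, n = 3). The log2 difference was 0.06 as deposited, -0.18 after quantile normalization and -0.05 after upper quartile rescaling, so its sign is not fixed. Between the 2 ligands the order of levels turned: Il17b was above Il17d in 3 of 3 FP libraries and in 0 of 3 RR libraries. The ratio of Il17b to Il17d was 4.39 to 5.89 in FP and 0.201 to 0.627 in RR.

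**Figure D1:**
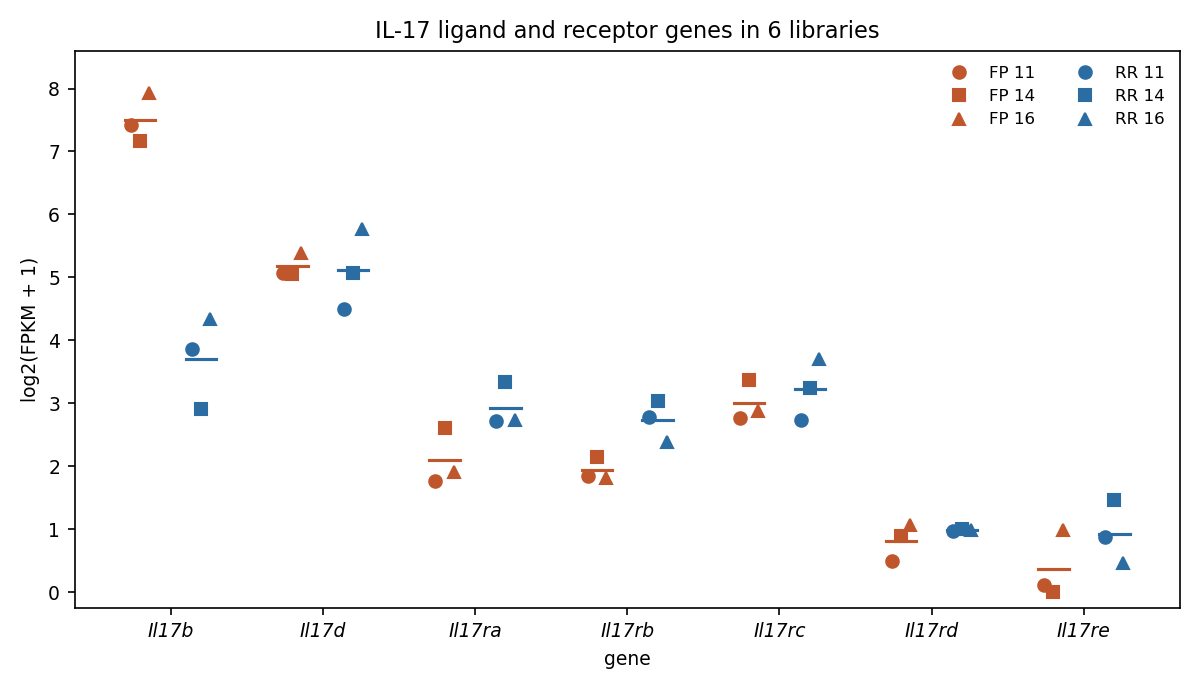
Level of the 7 genes, as log2(FPKM + 1), in each of the 6 libraries, with a bar at the mean of each group (n = 3). Il17b stands far higher in FP (142 to 242 FPKM) than in RR (6.53 to 19.3 FPKM), Il17d overlaps, and Il17ra and Il17rb are lower in each FP library than in any RR library.

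Il17rb and Il17ra had values in FP below those in RR, but neither was among the genes past the limma threshold. Il17rb, which binds IL-17B, showed 2.60, 3.45 and 2.52 FPKM in FP 11, FP 14 and FP 16. RR 11, RR 14 and RR 16 held 5.85, 7.18 and 4.23 FPKM. Its groups did not overlap, with means of 2.86 ± 0.512 for FP and 5.75 ± 1.47 FPKM for RR (SD, n = 3) and a log2 difference of -0.79. About 14.2 to 21.3 fragments in FP and 25.4 to 31.5 in RR lie behind it. Exons of Il17rb overlap those of Actr8, an actin-related protein gene on the opposite strand, and the sources used here do not say whether counting used strand. Actr8 itself averaged 8.46 ± 2.02 FPKM over FP and 7.84 ± 1.65 over RR (SD, n = 3), with overlapping groups.

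Il17ra, the shared subunit, showed 2.39, 5.11 and 2.76 FPKM in FP 11, FP 14 and FP 16. RR 11, RR 14 and RR 16 held 5.58, 9.06 and 5.68 FPKM. Each FP library was under each RR library, but FP 14 came close, at 0.914 times the lowest RR value. The means were 3.42 ± 1.47 for FP and 6.78 ± 1.98 FPKM for RR (SD, n = 3), and the log2 difference was -0.84. With a 7752 bp transcript, these levels stand for about 57.4 to 78.6 fragments in FP and 111 to 127 in RR. Il17ra and Il17rb kept non-overlapping groups after quantile normalization and after upper quartile rescaling, and Il17b did so in the other direction.

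Il17rc, the partner of IL-17RA for IL-17A and IL-17F, showed 5.79, 9.31 and 6.31 FPKM in FP 11, FP 14 and FP 16, and the RR libraries held 5.66, 8.50 and 12.0 FPKM in the same order. The groups overlapped, and the log2 difference of -0.23 came from number 16 (-0.83), with 0.03 and 0.12 in numbers 11 and 14. Il17re, its neighbour on the chromosome, was far lower, with 0.084, 0 and 0.988 FPKM for the FP libraries against 0.827, 1.76 and 0.371 for the RR libraries. These are at most 8.7 fragments in a library, and a listed 0 may be an estimate that failed, so no fold is given. Il17rd showed 0.403, 0.857 and 1.09 FPKM for the FP libraries against 0.962, 0.998 and 0.982 for the RR libraries, about 13.0 to 24.2 fragments on its longest transcript. FP values of Il17rd lay on both sides of the RR values.

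Of the 7 genes, 5 passed the filter at a mean of 1 FPKM, and Il17rd and Il17re did not. Il17b was the only 1 of the 5 past the limma threshold, beside 0.967% of all genes tested. The groups did not overlap for 3 of the 5, beside 16% of all genes tested, with 1 above (8.74%) and 2 below (7.28%). As the genes were chosen with this contrast known, nothing is read from these shares.

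The order of receptor levels was Il17rc, then Il17ra and Il17rb, then Il17rd and Il17re. Il17rc was above Il17ra and above Il17rb in 3 of 3 FP and 2 of 3 RR libraries. Il17ra and Il17rb did not differ in order beyond their spread, with Il17ra higher in 2 of 3 libraries of each group. Il17rb was above Il17rd in all 6 libraries, and Il17rd above Il17re in 3 of 3 FP and 2 of 3 RR libraries. Summed, the 5 receptor genes reached 11.3, 18.7 and 13.7 FPKM in FP 11, FP 14 and FP 16, and 18.9, 27.5 and 23.3 FPKM in the RR libraries of those numbers. The FP sums lay below the RR sums, FP 14 by a small margin to RR 11.

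**Figure D2:**
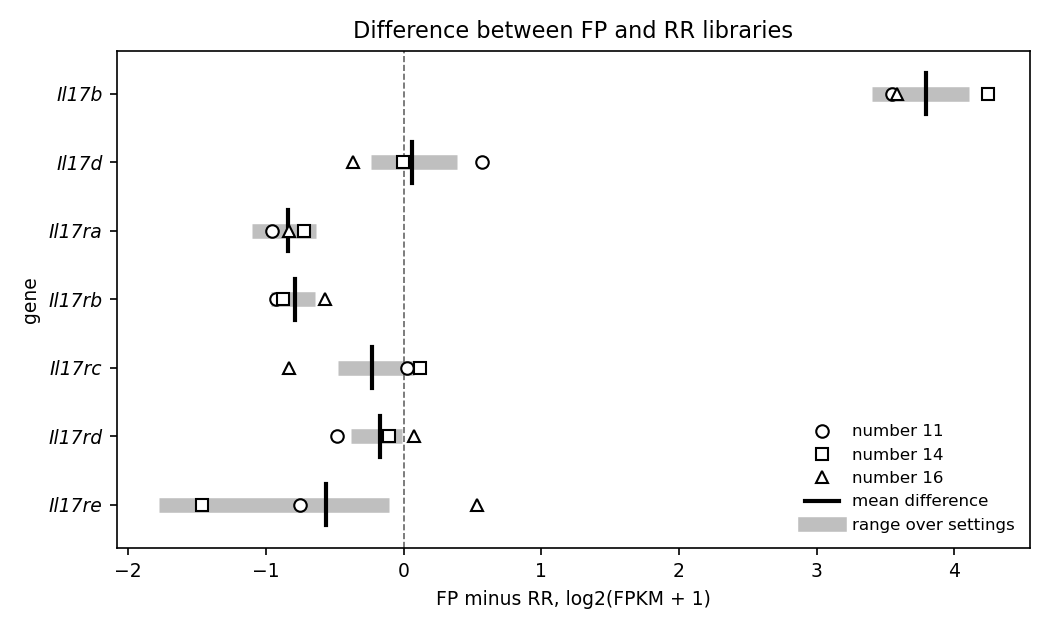
Difference FP minus RR on the log2(FPKM + 1) scale for each gene. The black line is the difference of group means (n = 3 each), open symbols are the differences within library numbers 11, 14 and 16, and the grey bar spans the alternative settings, the pseudocount of 0.1 included. Il17b is positive and Il17ra and Il17rb are negative in each number, whereas Il17d, Il17rc, Il17rd and Il17re have numbers on both sides of 0.

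Il17b ran opposite to Il17rb and Il17ra over the libraries, and less so to Il17re, Il17rd and Il17rc. The ratio of Il17b to Il17rb was 65.2, 41.2 and 95.9 in FP 11, FP 14 and FP 16, and 2.32, 0.910 and 4.55 in the matching RR libraries. In RR 14 the cytokine gene was thus slightly below its receptor gene on the FPKM scale, and in FP 16 far above. Over the 6 libraries, log2 values of Il17b correlated with those of Il17rb at Pearson's r of -0.959 and with those of Il17ra at -0.873, while Il17ra and Il17rb correlated at 0.925. Il17b correlated with Il17rc at -0.303, and with Il17re and Il17rd, both under the filter, at -0.585 and -0.395. These values describe 6 points that split into FP and RR, so the group difference sets most of them. Within each group, the library numbered 14 had the lowest Il17b and the highest Il17ra and Il17rb. Depth moves with that number, and its part was not tested.

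**Figure D3:**
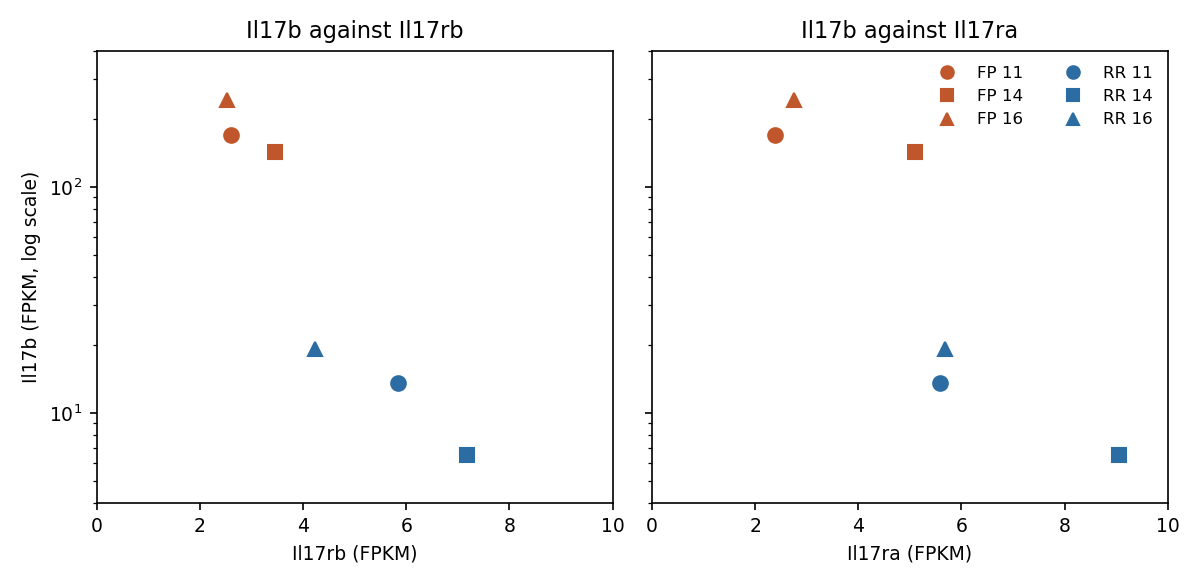
Il17b (FPKM, log scale) against Il17rb and against Il17ra (FPKM, linear scale), 1 point per library. FP libraries sit at upper left and RR libraries at lower right in both panels, with FP 14 and RR 14 at the right of their groups.

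The 4 IL-17 ligands outside the set, Il17a, Il17c, Il17f and Il25, were low and rested on few fragments. None reached a mean of 1 FPKM over the 6 libraries. Il25, the other ligand of IL-17RB, gave 0.268, 0 and 0.389 FPKM for the FP libraries against 0, 1.24 and 0.365 for the RR libraries, at most 2.2 fragments in a library. Il17c gave 1.02, 0 and 0 FPKM for the FP libraries against 0, 1.18 and 2.78 for the RR libraries, at most 5.7 fragments. Il17f gave 0, 0 and 0.687 FPKM for the FP libraries against 2.16, 2.19 and 0 for the RR libraries, at most 6.5 fragments. Il17a had at most 1.1 fragments in a library. Each of the 4 was listed at 0 in some libraries of both groups. Being under the filter, these 4 genes were not tested for a difference between FP and RR. Their sums were 1.525, 0 and 1.421 FPKM in FP 11, FP 14 and FP 16, and 2.155, 4.605 and 3.474 FPKM in the matching RR libraries. The FP sums lay below the RR sums, but they rest on few fragments and nothing is read from them.

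Genes next to the 7 on the chromosome were looked at because neighbours can share reads or regulation. Of 13 such genes, 10 were tested and 0 passed limma, beside 0.967% of all genes tested, with 1 at an unadjusted p under 0.05, beside 10.3%. Pcyox1l, a prenylcysteine oxidase-like gene 4298 bp beyond Il17b, gave 2.29, 2.52 and 3.69 FPKM for the FP libraries against 0.966, 0.588 and 2.95 for the RR libraries (limma adjusted p = 0.646). On the other side Mir143, a microRNA gene 35628 bp away, was listed at 0 in all 6 libraries. Chdh, the choline dehydrogenase gene, starts 126 bp from Il17rb on the opposite strand in GENCODE and averaged 7.65 ± 1.76 FPKM over FP and 12.1 ± 3.93 over RR (SD, n = 3; limma adjusted p = 0.624). Creld1, which follows Il17rc after 156 bp, was the only tested neighbour whose groups did not overlap, averaging 0.749 ± 0.383 FPKM over FP and 2.99 ± 1.29 over RR (limma adjusted p = 0.328). That is 1 of 10, beside 16% of all genes tested.

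Genes of IL-17 receptor signalling did not pass the threshold. Of 36 listed adaptors, kinases and regulators, 35 were tested. By limma 0 were called in either direction, beside 0.967% of all genes tested, and 1 had an unadjusted p under 0.05, beside 10.3%. Their median log2 difference was 0.07, beside 0.02 over all genes tested, and 21 were higher and 14 lower by their estimate. Groups did not overlap for 6 of the 35, beside 16% of all genes. The best expressed were Hsp90aa1, a chaperone that binds Act1 (73.9 ± 48.3 FPKM over FP, 51.4 ± 22.8 over RR), Tab2, an adaptor of the TAK1 kinase (21.3 ± 7.58 and 19.9 ± 5.92), Mapk3, which codes for ERK1 (23.8 ± 4.39 and 17.4 ± 3.31), and Traf3, an inhibitor of the receptor complex (17.6 ± 3.77 and 18.8 ± 5.41; SD, n = 3). Traf3ip2, which codes for Act1, was at 3.47 ± 1.72 and 3.22 ± 0.853 FPKM, and Traf6 at 2.57 ± 0.263 and 2.19 ± 0.293 FPKM.

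Cebpb, a transcription factor gene of the pathway named after its values were seen, was the 1 with the small p. FP 11, FP 14 and FP 16 held 1.75, 1.39 and 1.53 FPKM, and the RR libraries 3.73, 6.49 and 6.46 FPKM. The groups did not overlap, with a log2 difference of -1.33 ± 0.30 (SE) and a limma adjusted p = 0.107. That p ran from 0.0305 to 0.656 over the alternatives. Cebpd, its relative, had groups apart in the other direction, averaging 2.82 ± 0.345 FPKM over FP and 1.62 ± 0.232 over RR (limma adjusted p = 0.605).

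Classical IL-17 target genes were mostly low. Only 7 of 23 had a mean of at least 1 FPKM. Of these 0 were called by limma, beside 0.967% of all genes tested, and 0 had an unadjusted p under 0.05, beside 10.3%. The median log2 difference of the 7 was 0.11, beside 0.02 over all genes tested, and 1 of 7 had groups that did not overlap, beside 16% of all genes. The chemokine genes Cxcl1 and Ccl2 were above 0 in 1 library each. Cxcl3, also under the filter, gave 0.565, 0.561 and 1.64 FPKM for the FP libraries against 0.430, 0 and 0 for the RR libraries. Cxcl5 gave 0.317, 0.315 and 0 FPKM against 0.241, 0.367 and 0.649. Nos2 and Ptgs2 were under the filter but above 0 in each library. The 2 highest, S100a9 and S100a8, which code for calprotectin of neutrophils, were at 232 and 99.4 FPKM in RR 11. Elsewhere S100a9 showed 26.7, 33.0 and 8.39 FPKM for the FP libraries, 0 for RR 14 and 4.93 for RR 16. S100a8 showed 4.84, 14.4 and 10.6 FPKM for the FP libraries and was listed at 0 for RR 14 and RR 16. Without RR 11, S100a8 passed (limma adjusted p = 0.023). Mmp9 and Mmp13, matrix metalloprotease genes, averaged 9.20 ± 7.69 and 8.37 ± 9.39 FPKM over FP, and 12.1 ± 12.5 and 10.98 ± 14.2 over RR (SD, n = 3).

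Markers of other cells were summed beside these results. The counts below stand beside 0.967% of all genes tested that passed limma and 10.3% with an unadjusted p under 0.05. Of 20 leukocyte markers 18 were listed, 10 were tested and 0 passed limma, with 1 at an unadjusted p under 0.05. Their summed level was 400 FPKM in RR 11, against 39.2 and 40.4 in RR 14 and 16 and 47.0 to 74.0 in FP. S100a8 and S100a9 are on this list too and made up 331 FPKM of the sum in RR 11, so it largely repeats their values. Mpo, the myeloperoxidase gene of neutrophils, named after its values were seen, was at 18.6 FPKM in RR 11, at 3.41 and 2.95 in RR 14 and 16 and at 0.586 to 2.86 in FP. Ptprc, the pan-leukocyte marker CD45, was at 1.83 FPKM in RR 11 and at 0.214 to 1.197 in the other 5 libraries. The part of leukocytes in the Il17ra values was not tested. Of 10 skeletal muscle markers 0 passed limma, but 9 were higher in FP by their estimate, with a median log2 difference of 1.54 beside 0.02 over all genes tested. All 5 of them at an unadjusted p under 0.05 were higher in FP. Their summed levels were 449 to 575 FPKM in FP and 269 to 811 in RR. Most of the sum is Tnni2, a troponin gene and the 1 with a lower estimate. Without it the sums were 217, 135 and 245 FPKM in FP 11, FP 14 and FP 16, and 229, 32.4 and 41.7 FPKM in the matching RR libraries. The part of muscle in the Il17b difference was not tested. Of 8 fibroblast and perichondrium markers 7 were tested and 1 was lower (limma), the decorin gene Dcn, while 4 of the 7 had a higher estimate. At an unadjusted p under 0.05, 2 were lower and 0 higher. Beside Dcn this was Pdgfra, a PDGF receptor gene whose groups did not overlap. It averaged 6.81 ± 0.310 FPKM over FP and 13.0 ± 3.66 over RR (limma adjusted p = 0.333). The sums of the whole list were 90.6 to 161 FPKM in FP and 222 to 408 in RR. Without Dcn they overlapped, at 52.3 to 102 FPKM in FP and 52.3 to 114 in RR. The part of such cells in the Il17ra and Il17rb values was not tested. Of 7 endothelial markers 6 were tested and 0 passed limma, while 5 of the 6 had a lower estimate. Their sums were 8.51 to 14.8 FPKM in FP and 7.5 to 24.2 in RR. Of 8 bone markers 7 were tested and 0 passed limma, while 5 of the 7 had a higher estimate. Their sums were 885, 717 and 235 FPKM in FP 11, FP 14 and FP 16, and 1643, 349 and 227 in the matching RR libraries. The part of endothelial and bone cells was not tested.

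The list of FGF and ERK feedback genes, the company of IL-17RD, also holds FGF receptor genes. It had 1 of 15 tested genes past the limma threshold, beside 0.967% of all genes. The median log2 difference was -0.04, beside 0.02 over all genes tested. The 1 gene was a receptor gene, Fgfr3. No feedback gene of the Spry, Spred, Dusp or Etv families passed, with 0.582 as their lowest limma adjusted p (Dusp4). Fgfr3, an FGF receptor of growth cartilage, showed 162, 170 and 179 FPKM for the FP libraries against 43.8, 41.3 and 70.9 for the RR libraries (log2 difference 1.73 ± 0.29 SE, limma adjusted p = 0.0341). Leaving out a library ended that call in 5 of 6 fits, all but the fit without RR 16 (limma adjusted p at most 0.194). Dropping the intensity trend ended it too (limma adjusted p = 0.0612). Fgfr1 went the other way, with 15.2, 22.8 and 19.9 FPKM for the FP libraries against 44.9, 46.0 and 67.6 for the RR libraries, and missed the threshold (adjusted p = 0.0758 in limma). Fgfrl1, Spred1 and Fgfr2 had overlapping groups, at log2 differences of -0.27, 0.05 and -0.04. Il17rd, at about 1 FPKM, sat far below these receptors, and Etv4, an ERK-induced transcription factor, averaged 0.336 ± 0.199 FPKM over FP and 0.734 ± 0.482 over RR (SD, n = 3).

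**Figure D4:**
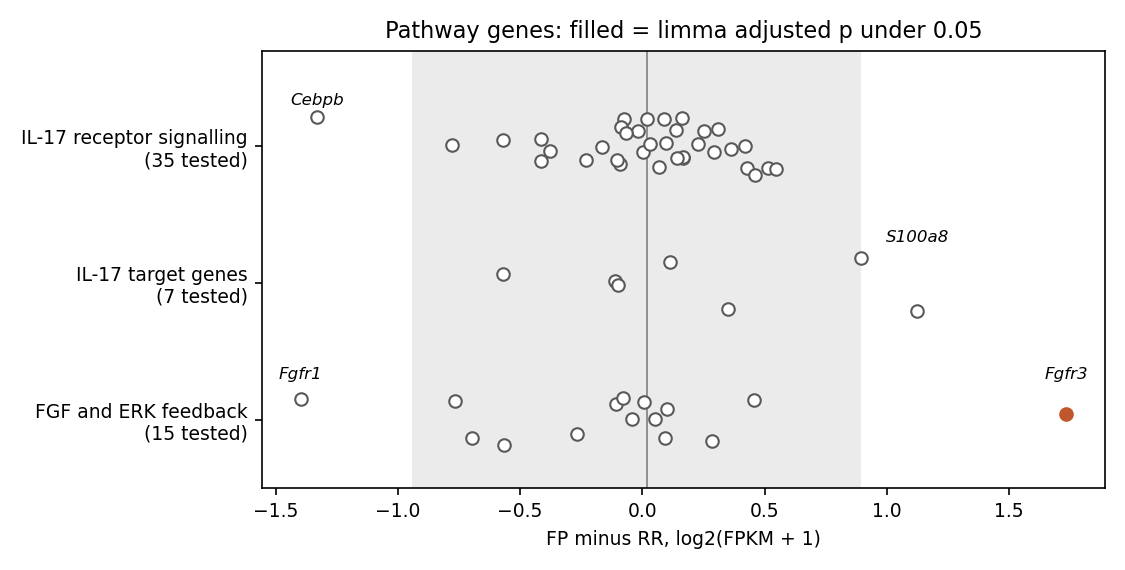
Difference FP minus RR, log2(FPKM + 1), for each tested gene of 3 lists. The grey band holds the middle of all genes tested, from percentile 5 (-0.94) to percentile 95 (0.89), with a line at their median. Fgfr3 is the only filled point, and without passing Cebpb and Fgfr1 lie left of the band and S100a8 and S100a9 right of it.

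Genes whose pattern was most like that of Il17b were ranked by Pearson's r of log2(FPKM + 1) over the 6 libraries, among 6517 genes whose mean reached 5 FPKM. The first was Foxa3, a forkhead transcription factor gene (r = 0.997), with 8.53, 7.23 and 10.4 FPKM in FP 11, FP 14 and FP 16 against 2.48, 1.45 and 2.57 in the matching RR libraries. It shares with Il17b the order of libraries within both groups. Smarcb1, a subunit of SWI/SNF chromatin remodellers, followed at 0.995 and the ligand gene Wnt4 at 0.994. Wnt4 averaged 11.5 ± 0.485 FPKM over FP and 2.21 ± 0.628 over RR (SD, n = 3). Rhbdl2, a rhomboid protease gene, Sdc3, which codes for syndecan 3, Smpd3, a neutral sphingomyelinase gene, Phospho1, a phosphatase gene of matrix vesicles, and Nim1k, a kinase gene, had r of 0.990 to 0.992.

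Smpd3 had a difference of almost the same size as Il17b, averaging 210 ± 16.8 FPKM over FP and 14.2 ± 4.39 over RR (SD, n = 3), whereas Smarcb1 differed less, at 36.3 ± 1.15 and 21.2 ± 1.46 FPKM. Pearson's r is thus blind to the size of the difference. As Il17b was chosen with its FP to RR difference known, the group difference sets most of each r. Phospho1 is also one of the 10 hypertrophic markers. Of other layer markers, Ihh, the Indian hedgehog ligand gene of prehypertrophic cells, had r = 0.978 (place 41) and Col10a1, the collagen gene of hypertrophic cells, r = 0.972 (place 61). The 3 most opposite genes were Bckdhb, of branched-chain keto acid breakdown (r = -0.989), Ppp4r4, a phosphatase regulator (r = -0.985), and Map3k12, a kinase (r = -0.985). Pthlh, the parathyroid hormone-related protein gene of resting cells, had r = -0.970, and Apoe, which codes for apolipoprotein E, r = -0.955. The ranking rests on few points: without 1 library, 1 to 5 of the 8 genes remained among the first 8, and 7 to 8 among the first 50. Without both libraries numbered 11, 14 and 16, it was 3, 6 and 5 among the first 50.

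**Figure D5:**
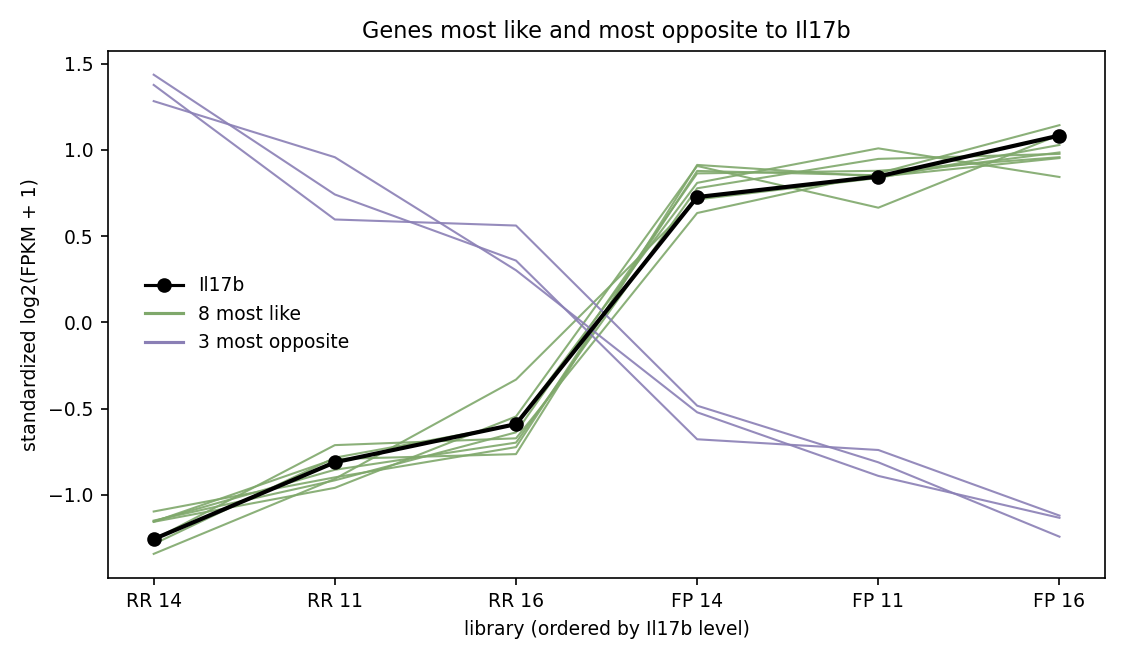
Standardized log2(FPKM + 1) of Il17b (black), the 8 genes most like it (green) and the 3 most opposite (purple) in the 6 libraries, ordered by the level of Il17b. The step between RR 16 and FP 14 is shared by all 12 genes, upward in 9 and downward in 3.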

How the data were processed

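The authors deposited FPKM values, 1 column per library and 1 row per symbol, per the file headers. The submitters' processing notes name TopHat2 2.1.1, Bowtie2 2.2.8, SAMtools 0.1.18, Cuffdiff 2.2.1 and mm10; their order, the annotation, strand use and scaling between libraries are unstated there. Total RNA from QIAzol went into a SMARTer stranded pico-input kit, per the labels' protocols. The 7 genes and all lists were chosen with earlier results of these data known.

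In R 4.3.3, limma 3.58.1 (two-sided, with intensity trend) compared FP with RR on log2(FPKM + 1) for 14789 genes whose mean reached 1 FPKM, with Benjamini-Hochberg adjustment over all. On simulated data (5 sets of 14789 genes) the FP against RR fit called 0.048% of unchanged genes, and 6%, 56.4%, 94.8% and 99.6% of genes changed by 1, 2, 3 and 4 on the log2 scale. How often this fit calls a gene with the level and spread of Il17ra or Il17rb was not tested. Fragments were estimated from steps of low values of 3524 single-transcript symbols of 1500 to 3000 bp (72.1% to 75.1% whole within 0.1 fragments, 20% by chance). Of 24346 symbols 23310 were in GENCODE M21.

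Named genes are the 7, the 4 other ligands, up to 6 called and 4 best expressed genes of each pathway list, the 8 most like and 3 most opposite to Il17b, nearest neighbours and 4 layer markers. Others were named after their values were seen, 1 leukocyte marker is not reported singly, and marker sums were split at their leading genes after seeing the data. Small RNA, Gm and Rik names were left out of the likeness ranking.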

Additional observations from a re-analysis of the deposited data

How the results depend on the processing

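The Il17b difference kept its sign in all 19 alternatives, between 3.40 and 4.11 on the log2 scale, as did Il17ra (-1.10 to -0.64) and Il17rb (-0.97 to -0.64). For these genes, whose groups did not overlap, most alternatives could not turn the sign. Only quantile normalization and upper quartile rescaling could have done so. There the differences were 3.56 and 3.68 for Il17b, -0.855 and -0.94 for Il17ra, and -0.802 and -0.893 for Il17rb. Il17d changed sign in 5 of 19 (-0.24 to 0.39) and Il17rc in 2 of 19 (up to 0.072, without both libraries numbered 16). The count of 143 genes became 83 without an intensity trend, 42 to 85 without 1 library, and 42, 8 and 20 without both libraries numbered 11, 14 and 16, where fewer samples are fitted. Its 82 higher and 61 lower genes became 66 and 65 after quantile normalization and 75 and 81 after upper quartile rescaling. The FGF and ERK count of 1 became 0 without an intensity trend, 0 to 1 without 1 library and 0 without both of any number. It became 2, with Fgfr1 added, after quantile normalization and after upper quartile rescaling. The IL-17 target count of 0 became 1 (S100a8) without RR 11 and without both numbered 11, and ran from 0 to 1 without 1 library. Of the 8 genes most like Il17b, 3 remained among the first 8 after quantile normalization, 5 after upper quartile rescaling, 1 to 5 without 1 library, and 0, 0 and 2 without both libraries numbered 11, 14 and 16. The cause was not tested for the scalings.

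Deviations of same-numbered libraries correlated at 0.319, 0.185 and 0.089 across genes, and those of other pairs at -0.224 to 0.0461. Each FP library correlated best with its own number. The main fit took no pairing, because the sources used here do not tie libraries to animals. These correlations do not settle whether the numbers are a pairing. With the number as a replicate block 271 genes passed, and 412 as a random effect. The FGF and ERK count became 2 in both block fits, and the signalling count 1 (Cebpb) with the random effect. Il17rd and Il17re are limited by depth.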
